A study of Mus musculus with 4 samples.

Results

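Cytochrome P450 genes of the mouse prostate were read on 4 expression arrays, 1 for each combination of mouse line and gavage. The members were the non-control probes whose gene name in the scanner files is Cyp followed by a family number, a subfamily letter and a gene number. This rule gave 113 probes for 80 genes, of 27974 genes on the array. The CYP4F family, to which the known vitamin E hydroxylases belong, held 7 of the 80 genes. Cyp51, Tbxas1, Ptgis and Cyp2ab1 also encode proteins of the superfamily but have names outside the rule, and they are given separately.

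The 4 groups were TRAMP mice given TmT, TRAMP mice given olive oil, C57BL/6 mice given TmT and C57BL/6 mice given olive oil. TRAMP mice carry the early genes of the SV40 virus under the rat probasin promoter, which is active in prostate epithelium, and C57BL/6 mice carry no such transgene. TmT is a mixture of tocopherols rich in gamma-tocopherol, a form of vitamin E. It was given once by gavage at 600 mg/kg, and olive oil was its vehicle. All mice were males of 8 weeks on an AIN-76A diet, were fasted overnight before the gavage and were killed 12 h after it. Each group had 3 mice, and the labels do not say whether 1 array held RNA of 1 mouse or of a pool. The labels also do not give the genetic background of the TRAMP line, so a difference between the lines cannot be assigned to the transgene. With 1 array per group, no difference between 2 arrays has a replicate check.

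P450 enzymes are haem proteins that insert an oxygen atom into lipids, steroids, vitamins and foreign compounds, with electrons that most of them receive from the reductase Por. Side chains of tocopherols are shortened after omega-hydroxylation by CYP4F enzymes, mainly in liver, where gamma-tocopherol is a better substrate than alpha-tocopherol. Families CYP1 to CYP3 handle many foreign compounds, CYP4 enzymes hydroxylate fatty acids and eicosanoids, and higher-numbered families mostly serve steroids, sterols and vitamins. In the prostate, P450 enzymes take part in the turnover of androgens, oestrogens, retinoic acid and vitamin D.

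The values rest on 60-base probes, and 4 that have at least 1 reading frame without a stop codon are shown because the results below turn on them. They read the 2 CYP4F genes whose differences were small, an androgen-linked fatty acid hydroxylase that differed in opposite directions after TmT and after oil, and the gene with the largest difference between the lines. The probes of Cyp4f13 (chr17:33062503-33062650, minus strand, mm9) and Cyp4a12b (chr4:115106662-115107596, plus strand) span more genome than their own length and therefore cross a splice junction. The probes of Cyp4f18 (chr8:74512981-74513040, minus strand) and Cyp2e1 (chr7:147959585-147959644, plus strand) lie within 1 genomic block. Of all 113 member probes, 22 cross a junction.
Cyp4f13: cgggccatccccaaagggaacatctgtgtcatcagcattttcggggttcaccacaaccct
Cyp4f18: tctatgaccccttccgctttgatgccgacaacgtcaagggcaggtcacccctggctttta
Cyp4a12b: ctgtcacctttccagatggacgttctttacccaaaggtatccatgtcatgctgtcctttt
Cyp2e1: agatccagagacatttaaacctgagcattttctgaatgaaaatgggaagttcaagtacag

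Each level below is the log2 of the scanner's processed signal minus the log2 of the 75th percentile of that array, so a level of 0 is a signal as bright as that percentile. Probes differ in brightness, and levels are compared between arrays for 1 probe, never between probes. An error written after ± is the scanner software's error of the spots, which does not include differences between mice. A gene counted as measured in a comparison only if the scanner software marked it well above background on both arrays. Values with normexp come from another background correction, which added 50 units to every signal. The arrays' 75th percentiles were 71.3 to 161 units without it. The added units draw dim readings together and, as the percentiles differ, can turn the direction of dim probes. A smaller or turned value with normexp therefore does not show by itself that a difference is absent.

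Of the 80 P450 genes, 38 (47.5%) were well above background on all 4 arrays, against 16961 of 27974 (60.6%) of all genes. On no array were 20 P450 genes (25%) well above background, against 23.7% of all genes, and the other 22 passed on 1 to 3 arrays. P450 genes well above background numbered 42 on the TRAMP array after TmT, 52 on the TRAMP array after oil, 51 on the C57BL/6 array after TmT and 55 on the C57BL/6 array after oil. The order followed that of the arrays' 75th percentile signals, which were 71.3, 139, 118 and 161 units. The CYP2C and CYP2J list had the most silent members, with 7 of 16 on no array, while all 3 of Cyp4b1, Cyp4v3 and Cyp4x1 were measured everywhere. Among the CYP3A genes 2 of 6 were measured on all arrays, and of the CYP1 genes only Cyp1b1. The P450 genes that passed on no array were Cyp1a1, Cyp2a12, Cyp2c38, Cyp2c39, Cyp2c40, Cyp2c44, Cyp2c54, Cyp2c65, Cyp2d13, Cyp2d34, Cyp2j5, Cyp3a13, Cyp3a16, Cyp4a29, Cyp4a31, Cyp4f14, Cyp4f39, Cyp4f41-ps, Cyp8b1 and Cyp24a1. Of 7 hepatocyte markers on the array, Alb, Apob, Ttr and Fgb were well above background on no array, Tat on all 4 and Apoa1 on 3. Ahsg, a secreted glycoprotein of liver, passed on both TRAMP arrays and on neither C57BL/6 array, and was at least 5.73-fold higher in TRAMP mice after TmT and at least 5.84-fold higher after oil. The summed level of the list was -0.39 in TRAMP after TmT, -0.61 in TRAMP after oil, -1.01 in C57BL/6 after TmT and -1.13 in C57BL/6 after oil, and its part in P450 levels was not tested. The TRAMP array after oil stood apart in its fat markers, whose summed level there was 8.03, against 5.02 to 5.66 on the other arrays, and in the strongest correction within an array, by factors of 0.206 to 1.44.

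The 7 CYP4F genes differed in whether they could be read at all. All lie on chromosome 17 but Cyp4f18, which lies on chromosome 8. Cyp4f14, which encodes the main tocopherol omega-hydroxylase of mouse liver, was well above background on no array, nor were Cyp4f39, whose human counterpart hydroxylates very long fatty acids in skin, and the pseudogene Cyp4f41-ps. Levels of Cyp4f14 were -4.81 on the TRAMP array after TmT, -5.22 on the TRAMP array after oil, -5.86 on the C57BL/6 array after TmT and -4.99 on the C57BL/6 array after oil. These are readings near background and carry no order.

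Cyp4f13, an omega-hydroxylase of leukotrienes and other eicosanoids in mice, was measured on all arrays. Its levels were -1.66 in TRAMP after TmT, -0.89 in TRAMP after oil, -0.98 in C57BL/6 after TmT and -0.89 in C57BL/6 after oil. The TRAMP array after TmT was the low one, with a difference of -0.77 ± 0.18 from oil in the same line and of -0.68 ± 0.22 from C57BL/6 after TmT, both less than 2-fold. The probe lies where the scanner software's correction was strong, and the direction turned with it: TmT against oil in TRAMP mice was 0.64 before the multiplicative correction, -0.23 with it on all 4 arrays and 0.46 with normexp. Cyp4f18, a leukotriene B hydroxylase of mouse neutrophils, read -3.36 and -3.07 in TRAMP mice after TmT and oil, against -2.62 and -2.71 in C57BL/6 mice after TmT and oil. Both TRAMP levels lay below both C57BL/6 levels, with differences of -0.74 ± 0.34 after TmT and -0.36 ± 0.24 after oil, which became 0.21 and 0.01 with normexp. No difference of these 2 genes reached 2-fold in any comparison.

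Cyp4f16 was the only CYP4F gene at least 2-fold different between 2 arrays that both measured it. Its levels were -1.12 in TRAMP after TmT, 0.23 in TRAMP after oil, -0.97 in C57BL/6 after TmT and -1.67 in C57BL/6 after oil, so the TRAMP array after oil stood above the other 3. The difference between the lines was -0.15 ± 0.21 after TmT and 1.90 ± 0.16 after oil, and TmT against oil gave -1.35 ± 0.17 in TRAMP mice and 0.70 ± 0.21 in C57BL/6 mice. The spot lies in a region where the scanner software divided the signal of the TRAMP array after oil by 0.396, against 0.961 on the C57BL/6 array after TmT and 1.04 on the C57BL/6 array after oil, and did not correct the TRAMP array after TmT. Before that division the difference between the lines after oil was 0.53 and TmT against oil in TRAMP mice was -0.02, and normexp gave 0.36 and 0.10. Averaged with a second probe that passed on no array, TmT against oil in TRAMP mice was -0.54. The 2-fold differences of Cyp4f16 therefore depended on the correction within the array.

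Cyp4f15 was well above background on the TRAMP array after TmT alone, with a level of -3.40. There it was at least 2.75-fold higher than on the TRAMP array after oil and at least 2.24-fold higher than on the C57BL/6 array after TmT. For such a bound the bright reading is set against the other array, at the dim reading itself or at the lowest signal there that passed, whichever is higher. The lowest level well above background was -3.53 on the TRAMP array after TmT, so a level of -3.40 was near the limit of what this array measured.

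**Figure D1:**
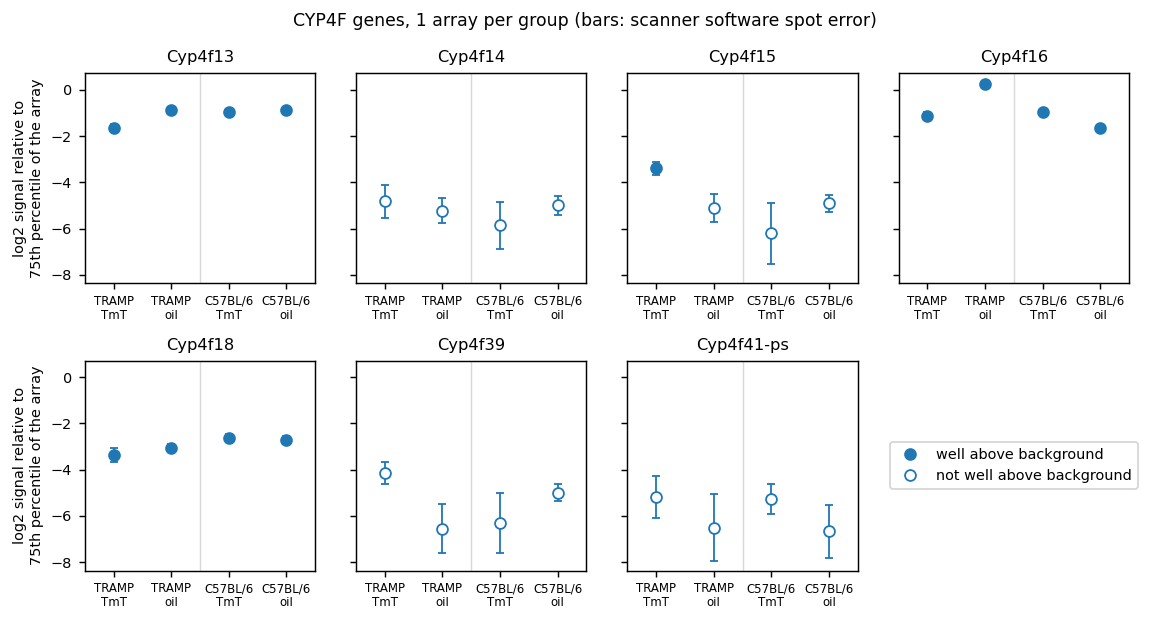
Levels of the 7 CYP4F genes on each array (vertical axis: log2 signal relative to the array's 75th percentile, 1 array per group; filled points were well above background, open points were not, and bars are the scanner software's spot error). Cyp4f14, Cyp4f39 and Cyp4f41-ps have open points only, and Cyp4f16 stands highest on the TRAMP array after oil, at 0.23.

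Across the whole superfamily, the comparison of TRAMP with C57BL/6 mice after oil held the most P450 genes that differed by at least 2-fold. Of 50 measured, 10 were higher in TRAMP mice and 8 were lower, which is 20% and 16%. Among all 18920 genes measured on these arrays 7.74% were higher and 7.84% lower by this fold. The higher genes came from several families, namely Cyp2e1, Cyp2b19, Cyp4b1, Cyp4f16, Cyp2b23, Cyp2w1, Cyp2c70, Cyp4v3, Cyp3a44 and Cyp2s1. The lower ones were Cyp2j13, Cyp2a5, Cyp4a12b, Cyp4a12a, Cyp2j9, Cyp2d12, Cyp20a1 and Cyp2u1. The median difference was -0.32 over the P450 genes and -0.07 over all genes, and the median size without its sign was 0.69 for P450 genes and 0.43 for all genes. With normexp, which draws dim readings together, 3 of the 50 were higher and 4 lower, and the share of all genes there is not given. The counted genes are not all independent, since Cyp4a12a and Cyp4a12b are near-identical.

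After TmT, 38 P450 genes were measured in both lines, and 5 were at least 2-fold higher in TRAMP mice and 1 was lower. Among all 17251 genes measured, 8.45% were higher and 6.09% lower. Cyp2b19, Cyp2j13, Cyp4a12b, Cyp2f2 and Cyp4a12a were the higher ones, and Cyp2a5 was the lower one. The median difference was -0.03 over P450 genes and 0.01 over all genes. The comparisons after oil and after TmT use different arrays. Of the 38 genes measured on all 4 arrays, 1 was at least 2-fold higher in TRAMP mice in both (2.85% of all genes) and 1 was lower in both (1.66%). A further 3 genes were at least 2-fold different in opposite directions, against 0.46% of the 16961 genes measured on all arrays.

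TmT against oil gave 6 P450 genes at least 2-fold higher and 5 lower among 40 measured in TRAMP mice, where 8.66% of all genes were higher and 4.86% lower. In C57BL/6 mice 1 of 49 was higher and 0 were lower, against 3.12% and 2.63% of all genes. The median differences over P450 genes were 0.26 in TRAMP mice and 0.08 in C57BL/6 mice, beside 0.10 and 0.02 over all genes. Of the genes measured on all 4 arrays, no P450 gene was at least 2-fold different in both lines in the same direction, where all genes gave 0.501% higher in both and 0.289% lower in both. Of the 38 genes measured on all 4 arrays, none was 2-fold different in opposite directions either, against 0.537% of all genes so measured. Cyp2c55 and Cyp2r1, each missed on at least 1 array, had a difference or bound past 2-fold in opposite directions and are described below. The difference of Cyp2r1 in TRAMP mice was under 2-fold in several other settings. Each TmT comparison shares 1 array with each comparison of the lines, so the counts are not independent of each other.

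**Figure D2:**
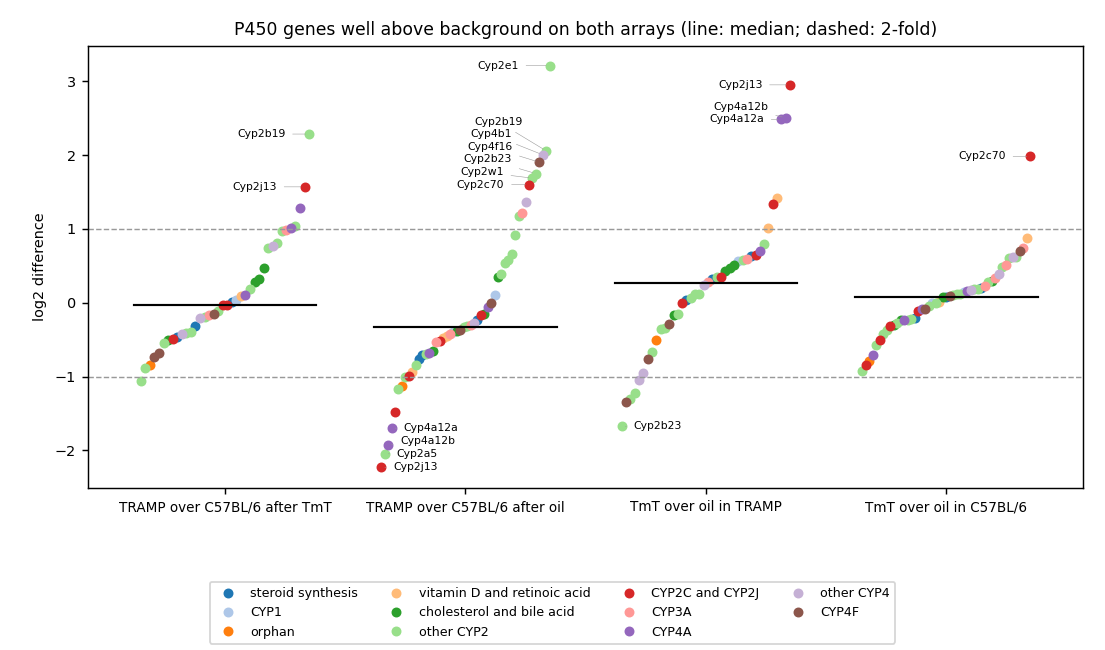
Log2 differences of the P450 genes well above background on both arrays of each comparison (points, coloured by list and sorted by value; black lines, medians; dashed lines, 2-fold). The points of TmT over oil in C57BL/6 mice lie closest to 0, with a lowest value of -0.93 and Cyp2c70 highest at 1.98, while TRAMP over C57BL/6 after oil runs from -2.23 to 3.21.

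A test across the 4 arrays was possible for each factor with limma, in a fit of line and treatment together whose 1 residual degree of freedom is their interaction. For the line, 27 of 19921 genes (0.136%) passed an adjusted p of 0.05 with Benjamini-Hochberg adjustment, and 0 of the 53 P450 genes tested did. Without adjustment 11 of the 53 P450 genes (20.8%) had a limma p under 0.05, against 15.1% of all genes. The same limma fit for TmT called 0 genes (0%), P450 or other, and 2 P450 genes (3.77%) had an unadjusted p under 0.05, against 6.28% of all genes. With an intensity-dependent prior limma called 1 P450 gene for the line, and with normexp background correction it called 4. How many of all genes these fits called is not given here, so these counts are not read as a result about P450 genes. In simulated data the main fit found none of the changes of log2 size 1 or 2, and 13 of its 97 calls there were of unchanged genes. An adjusted p above 0.05 therefore does not show that a difference of these sizes is absent. The simulation set its own share of changed genes, on which an adjusted p depends, so recovery in the real data may differ.

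Cyp2b19, an arachidonic acid epoxygenase known from mouse keratinocytes, was the P450 gene higher by at least 2-fold in TRAMP mice in both comparisons. Its levels were -0.69 and -1.04 in TRAMP mice after TmT and oil, against -2.98 and -3.10 in C57BL/6 mice after TmT and oil. Both TRAMP arrays stood above both C57BL/6 arrays, by 2.28 ± 0.24 after TmT and 2.06 ± 0.23 after oil. The fitted difference of the line was 2.17 with a standard error of 0.325 and an adjusted p of 0.0854 in limma, the lowest adjusted p of the P450 genes. A second Cyp2b19 probe, designed to another transcript, was well above background on the TRAMP array after oil alone, at -2.34. There it was at least 5.64-fold higher than in C57BL/6 mice after oil, and after TmT it was measured in neither line. With all probes averaged the difference was 0.46 after TmT and 3.22 after oil, and with normexp the differences were 0.88 after TmT and 0.96 after oil.

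Cyp2f2, the naphthalene-activating P450 of mouse airway club cells, read 4.88 and 4.76 in TRAMP mice after TmT and oil. In C57BL/6 mice after TmT and oil it read 3.84 and 3.85. The groups did not overlap, and the differences were 1.04 ± 0.20 after TmT and 0.91 ± 0.20 after oil. In limma the line difference was 0.97 with a standard error of 0.323 and an adjusted p of 0.263. The difference lay so near 2-fold that other settings moved it across, from 0.68 to 0.96 after TmT and from 1.05 to 1.14 after oil. The gene lies in the CYP2 cluster of chromosome 7 with Cyp2b19 and Cyp2a5, and of the 12 cluster members 8 were measured on all arrays.

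Other genes that were higher in TRAMP mice under both gavages did not reach 2-fold under both in the main setting. Cyp2s1, which the dioxin receptor Ahr can induce, read 1.00 and 0.89 in TRAMP mice after TmT and oil, against 0.19 and -0.29 in C57BL/6 mice after TmT and oil. Cyp2w1, known from fetal gut and from tumours, read -2.69 and -2.35 in TRAMP mice and -3.44 and -4.04 in C57BL/6 mice, in the same order of gavages. Its difference was 0.74 ± 0.31 after TmT and 1.69 ± 0.29 after oil. Cyp3a44 read -2.35 and -2.63 in TRAMP mice, against -3.34 and -3.85 in C57BL/6 mice, again after TmT and oil. In all 3 genes both TRAMP arrays exceeded both C57BL/6 arrays, and the adjusted p of the line in limma was 0.224 for Cyp3a44, 0.245 for Cyp2w1 and 0.265 for Cyp2s1. With normexp the differences after oil were 0.22, 0.49 and 0.96 in that order. Cyp3a44 passed 2-fold under both gavages with multiplicative detrending on all 4 arrays, at 1.27 after TmT and 1.22 after oil. After oil it was under 2-fold before detrending, at 0.78, and with all probes averaged, at 0.85, as was Cyp2s1 with all probes averaged, at 0.68. The cell cycle genes Mki67, Top2a, Mcm6, Uhrf1, Ccnb1 and Cdk1 moved with the line too, with 5 of 5 measured at least 2-fold higher after TmT (median 2.29) and 6 of 6 after oil (median 2.92), and their part in these P450 differences was not tested.

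Cyp2a5, the coumarin hydroxylase of mouse liver, was the P450 gene lower by at least 2-fold in TRAMP mice under both gavages. It read -2.60 and -2.66 in TRAMP mice after TmT and oil, against -1.54 and -0.61 in C57BL/6 mice after TmT and oil. The differences were -1.06 ± 0.26 after TmT and -2.05 ± 0.22 after oil, and the adjusted p of the line in limma was 0.175. Under normexp they shrank to -0.02 and -0.92. Its neighbour Cyp2a22 was well above background in C57BL/6 mice only, at -3.23 after TmT and -3.52 after oil, and was at least 2.53-fold lower in TRAMP mice after oil. Cyp2a4, a testosterone hydroxylase, read -3.58 in TRAMP mice and -2.89 in C57BL/6 mice after oil, a difference of -0.70 ± 0.26. Its second probe differed there by -1.15, past 2-fold, and the third was at least 3.59-fold lower in TRAMP mice. For TmT against oil in C57BL/6 mice the 3 probes gave -0.04, -1.08 and -1.19. Cyp2a4 and Cyp2a5 are close paralogues, and cross-hybridisation between their probes was not tested.

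Cyp20a1, an enzyme of unknown substrate, read -1.40 and -0.90 in TRAMP mice after TmT and oil and -0.57 and 0.22 in C57BL/6 mice after TmT and oil. It was lower in TRAMP mice, with differences of -0.84 ± 0.22 after TmT and -1.12 ± 0.21 after oil. It was also lower after TmT than after oil in both lines, with differences of -0.50 ± 0.22 in TRAMP mice and -0.79 ± 0.21 in C57BL/6 mice. The scanner software divided the signal of this spot by 0.512 on the TRAMP array after oil. Before that correction the line difference after oil was -2.07 and TmT against oil in TRAMP mice turned to 0.46, and normexp turned it to 0.43. With normexp the line difference after TmT was -0.18. Cyp2c29, a liver epoxygenase, was seen in C57BL/6 mice only, at -3.89 after TmT and -3.58 after oil. It was at least 2.23-fold lower in TRAMP mice after oil.

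**Figure D3:**
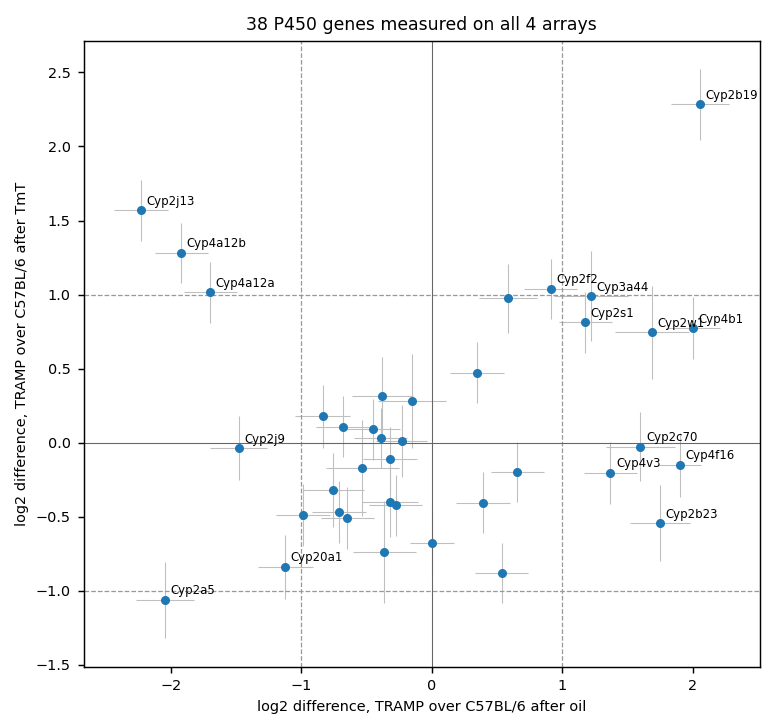
Log2 difference of TRAMP over C57BL/6 mice after oil (horizontal) and after TmT (vertical) for the 38 P450 genes measured on all 4 arrays, with the scanner software's spot error as bars and 2-fold as dashed lines. Cyp2b19 lies beyond 2-fold at the upper right and Cyp2a5 at the lower left, while Cyp2j13, Cyp4a12b and Cyp4a12a lie at the upper left.

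The genes with opposite differences were Cyp4a12a, Cyp4a12b and Cyp2j13, which lie on chromosome 4. Cyp4a12a and Cyp4a12b encode near-identical omega-hydroxylases of arachidonic acid that androgen induces in the mouse kidney, and Cyp2j13 belongs to the arachidonic acid epoxygenases. Cyp4a12b read 3.66 in TRAMP after TmT, 1.15 in TRAMP after oil, 2.37 in C57BL/6 after TmT and 3.08 in C57BL/6 after oil. Cyp4a12a read 2.08 in TRAMP after TmT, -0.41 in TRAMP after oil, 1.06 in C57BL/6 after TmT and 1.29 in C57BL/6 after oil. In both genes the TRAMP array after oil was lowest and the TRAMP array after TmT highest, with the C57BL/6 arrays between them.

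The line difference of Cyp4a12b was 1.28 ± 0.20 after TmT and -1.92 ± 0.20 after oil, and that of Cyp4a12a was 1.01 ± 0.20 after TmT and -1.70 ± 0.20 after oil. TmT against oil gave 2.50 ± 0.20 for Cyp4a12b and 2.48 ± 0.20 for Cyp4a12a in TRAMP mice, and -0.70 ± 0.20 and -0.23 ± 0.20 in C57BL/6 mice. The differences after TmT were under 2-fold with normexp, at 0.88 for Cyp4a12b and 0.63 for Cyp4a12a, and that of Cyp4a12a also with scaling to the median, at 0.92, and before multiplicative detrending, at 0.94. Since the genes are near-identical, the 2 probes may read both transcripts and are not independent.

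Cyp2j13 had 3 probes. The brightest read 2.28 in TRAMP after TmT, -0.67 in TRAMP after oil, 0.71 in C57BL/6 after TmT and 1.56 in C57BL/6 after oil. Its line difference was 1.57 ± 0.20 after TmT and -2.23 ± 0.20 after oil, and TmT against oil gave 2.95 ± 0.20 in TRAMP mice and -0.85 ± 0.20 in C57BL/6 mice. A second probe, which crosses a splice junction, was well above background on all arrays and read -2.51, -1.81, -2.21 and -1.72 in the same order of arrays. It did not follow the first: its line difference was -0.31 after TmT and -0.09 after oil. The third was well above background on the TRAMP array after TmT and the C57BL/6 array after oil only. Its bounds ran the way of the first, at least 2.46-fold higher in TRAMP mice after TmT and at least 4.01-fold lower after oil. The line difference after TmT was 0.99 with all probes averaged and 0.94 with normexp. What transcript the brightest probe reads was not tested.

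Secretory prostate genes moved on the same arrays. Of 9 markers, all well above background on all arrays, 6 were at least 2-fold lower in TRAMP mice after TmT and 5 after oil, and their summed level ranged from 8.91 on the TRAMP array after oil to 10.64 on the C57BL/6 array after TmT. TmT against oil in TRAMP mice gave 3 higher and 2 lower, among them Tgm4, a secreted transglutaminase, at 6.54 after TmT and 3.90 after oil. Akr1b7, an androgen-dependent aldo-keto reductase abundant in vas deferens and singled out here after its values were seen, read 5.23 in TRAMP after TmT, 1.03 in TRAMP after oil, 6.05 in C57BL/6 after TmT and 4.78 in C57BL/6 after oil. It stood on the list of adrenal and Leydig cell markers, and the other members stayed under 2-fold where both arrays measured them. TmT against oil in TRAMP mice was -0.15 for Star, and the lines differed after oil by 0.37 for Star, -0.16 for Hsd3b1 and 0.12 for Mc2r. Of 6 epididymis and vas deferens markers, Lcn5, Lcn8 and Adam7 were well above background on no array, and Defb10 on the C57BL/6 arrays only. Crisp1 and Spink8 passed on all arrays. Crisp1 read 2.93 in TRAMP after TmT, -0.28 in TRAMP after oil, 2.84 in C57BL/6 after TmT and 2.20 in C57BL/6 after oil. Spink8 read 4.17, 3.57, 4.01 and 3.79 in the same order of arrays. The summed level of the list was 4.68 in TRAMP after TmT, 3.67 in TRAMP after oil, 4.55 in C57BL/6 after TmT and 4.22 in C57BL/6 after oil. All 7 seminal vesicle markers were well above background on all arrays, with summed levels of 11.12, 10.91, 11.03 and 10.93 in that order. For TmT against oil in TRAMP mice, 2 of them were at least 2-fold higher and 2 lower. Some stromal and basal markers were also at least 2-fold higher on the TRAMP array after TmT than after oil. They were 4 of 6 fibroblast markers (median 1.12), 2 of 4 basal (0.81), 2 of 5 smooth muscle (0.60) and 1 of 5 endothelial (0.43), and none on these lists was 2-fold lower. The summed level of each of these 4 lists was lowest on the TRAMP array after oil, at 6.02 for fibroblast markers, against 6.88 in TRAMP after TmT, 6.84 in C57BL/6 after TmT and 7.13 in C57BL/6 after oil. The part of these cells or genes in the levels of Cyp4a12a, Cyp4a12b and Cyp2j13 was not tested. In such bulk RNA, fewer cells of a type and less RNA per cell cannot be told apart.

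**Figure D4:**
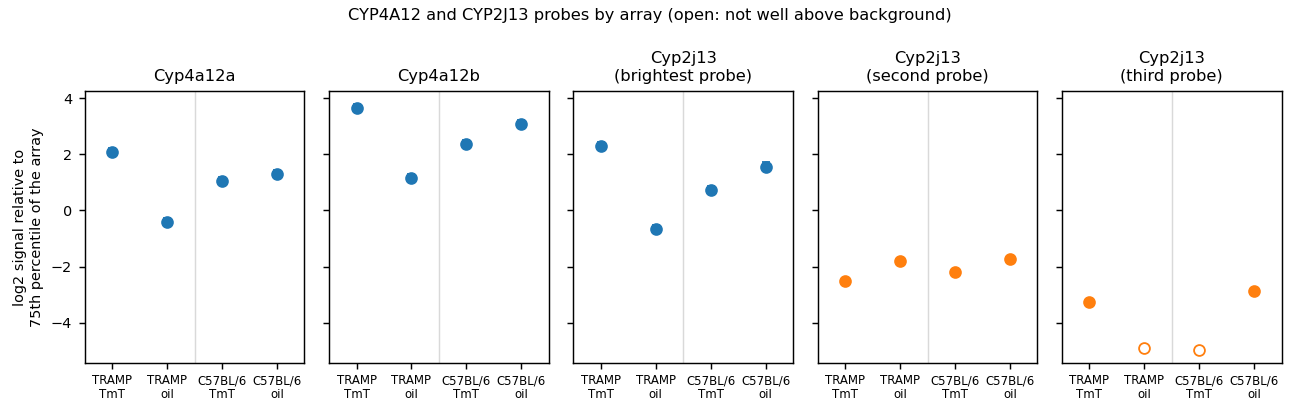
Levels of the Cyp4a12a and Cyp4a12b probes and of the 3 Cyp2j13 probes on each array (log2 signal relative to the array's 75th percentile; open points were not well above background; bars in the first 3 panels are spot errors). The first 3 panels are lowest on the TRAMP array after oil, at -0.41, 1.15 and -0.67, and the second Cyp2j13 probe is not, at -1.81.

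By their brightest probes, Cyp4a10, Cyp4x1, Cyp2j9 and Cyp2j6 differed less between the lines after oil than Cyp4a12a, Cyp4a12b and Cyp2j13 did. Cyp4a10, a fatty acid hydroxylase under the receptor Ppara, read 1.28 and 0.58 in TRAMP mice after TmT and oil, against 1.18 and 1.26 in C57BL/6 mice after TmT and oil. A second Cyp4a10 probe was higher in TRAMP mice, at least 3.90-fold after TmT, where C57BL/6 mice gave no reading well above background, and by a log2 difference of 1.78 after oil, so the probes of this gene disagree. TmT against oil in TRAMP mice, 0.70 for the brightest probe, was 1.16 before multiplicative detrending. Cyp4x1 was steady, with levels of 3.77 and 3.53 in TRAMP mice and 4.20 and 3.81 in C57BL/6 mice, after TmT and oil. Cyp2j9 read -1.12 in TRAMP after TmT, -2.46 in TRAMP after oil, -1.09 in C57BL/6 after TmT and -0.98 in C57BL/6 after oil, so the TRAMP array after oil alone was low. The lines differed by -0.04 ± 0.21 after TmT and -1.48 ± 0.22 after oil, the second of which was -0.64 with normexp. Cyp2j6 read -0.79 on both TRAMP arrays, against -0.30 after TmT and 0.20 after oil in C57BL/6 mice, with differences under 2-fold, of which that after oil, -0.99, was -1.11 before multiplicative detrending.

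Cyp2e1, which oxidises ethanol, acetone and other small molecules, had the largest difference of any P450 gene. It read 0.32 in TRAMP mice and -2.89 in C57BL/6 mice after oil, a difference of 3.21 ± 0.22. After TmT it was not well above background in TRAMP mice and read -3.46 in C57BL/6 mice, and in TRAMP mice it was at least 14.4-fold lower after TmT than after oil. The TRAMP array after oil stood apart from the other 3. In limma the fitted TmT difference was -2.29 with a standard error of 0.799 and an adjusted p of 0.778.

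Several P450 genes were highest on that array too. Cyp4b1, which activates the furan ipomeanol and hydroxylates fatty acids, read 0.13 in TRAMP after TmT, 1.18 in TRAMP after oil, -0.65 in C57BL/6 after TmT and -0.82 in C57BL/6 after oil. Its line difference was 0.77 ± 0.21 after TmT and 2.00 ± 0.20 after oil, and TmT against oil gave -1.05 ± 0.21 in TRAMP mice. Cyp4v3, the mouse counterpart of the ocular fatty acid hydroxylase CYP4V2, differed between the lines by -0.20 ± 0.21 after TmT and 1.37 ± 0.21 after oil, or 0.93 after oil with normexp. Cyp2b10, a target of the receptor Nr1i3, read 0.79 in TRAMP after TmT, 2.09 in TRAMP after oil, 1.67 in C57BL/6 after TmT and 1.56 in C57BL/6 after oil.

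TmT against oil in TRAMP mice was -1.31 ± 0.20 for Cyp2b10, -1.22 ± 0.21 for Cyp2b13 and -0.67 ± 0.20 for Cyp2b9, and in C57BL/6 mice these were 0.11 ± 0.20, -0.42 ± 0.20 and 0.18 ± 0.20. Second probes of Cyp2b13 and Cyp2b9, well above background on all arrays, gave -0.23 and -1.77 for TmT against oil in TRAMP mice. With all probes averaged Cyp2b13 was under 2-fold there, at -0.73, and Cyp2b9 past it, at -1.22. Cyp2b23 read -2.47 in TRAMP after TmT, -0.80 in TRAMP after oil, -1.93 in C57BL/6 after TmT and -2.55 in C57BL/6 after oil. Its TmT difference in TRAMP mice, -1.68 ± 0.25, became -0.81 before the correction within the array and 0.05 with normexp, and its line difference after oil, 1.75 ± 0.23, became 0.58 with normexp. The CYP2B genes are close paralogues whose probes may share transcripts.

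Adipocyte markers were high on the same array. After oil 7 of the 8 measured were at least 2-fold higher in TRAMP than in C57BL/6 mice, with a median difference of 2.34, and 6 of the 7 measured in TRAMP mice were lower after TmT than after oil, with a median of -2.09. Their summed level was 5.32 in TRAMP after TmT, 8.03 in TRAMP after oil, 5.02 in C57BL/6 after TmT and 5.66 in C57BL/6 after oil, and Lep was well above background on no array. Ucp1, the uncoupling protein of brown fat, read 1.57 in TRAMP and -2.60 in C57BL/6 mice after oil and was not well above background in TRAMP mice after TmT. The part of fat tissue in the levels of Cyp2e1, Cyp4b1, Cyp4v3 and the CYP2B genes was not tested.

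**Figure D5:**
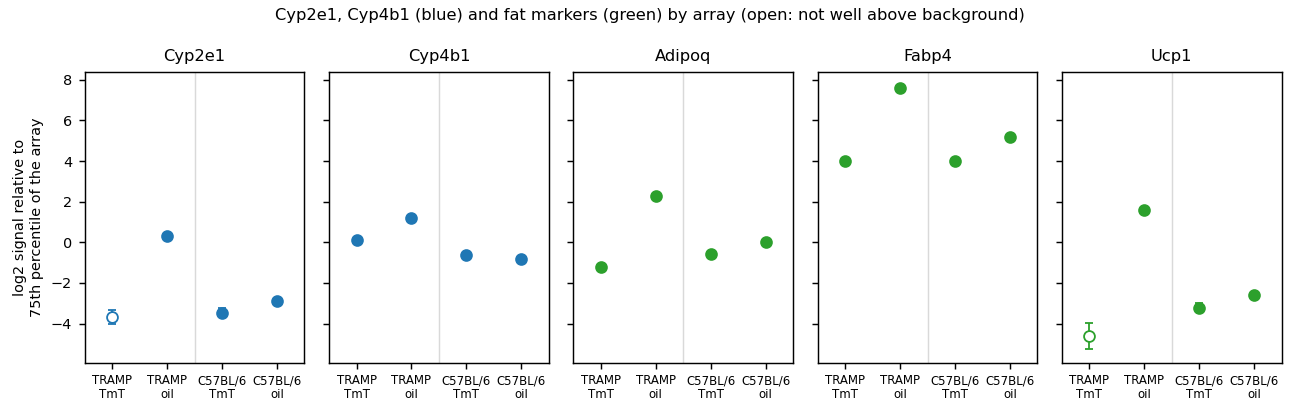
Levels of Cyp2e1 and Cyp4b1 (blue) and of the fat markers Adipoq, Fabp4 and Ucp1 (green) on each array (log2 signal relative to the array's 75th percentile, bars are spot errors, open points were not well above background). All 5 genes are highest on the TRAMP array after oil, where Cyp2e1 is at 0.32 and Ucp1 at 1.57.

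Genes of steroid synthesis showed no 2-fold difference in any comparison among those measured on both arrays, except Cyp17a1 in signals without the correction within the array. Cyp17a1, the lyase of androgen synthesis, read -2.11 and -2.15 in TRAMP mice after TmT and oil, against -2.12 and -1.91 in C57BL/6 mice after TmT and oil. Its line difference after oil, -0.23, was -1.18 before multiplicative detrending, and TmT against oil in TRAMP mice, 0.04, was 0.98. Cyp19a1, the aromatase, read -0.73 and -1.05 in TRAMP mice and -0.26 and -0.34 in C57BL/6 mice, with the TRAMP arrays lower and differences of -0.47 ± 0.21 after TmT and -0.71 ± 0.21 after oil. A second Cyp19a1 probe was well above background on no array. Cyp11b2, the aldosterone synthase, differed by at most 0.76 in size, with -0.76 ± 0.23 after oil. Cyp11a1, the side chain cleavage enzyme, was near background, and its 3 probes did not pass on the same arrays.

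Cyp1b1, which hydroxylates oestrogens, was the bright member of the CYP1 family. It read 1.16 and 0.59 in TRAMP mice after TmT and oil, against 1.12 and 0.98 in C57BL/6 mice after TmT and oil, and no difference exceeded 0.57 in size. Cyp1a1, the classical target of Ahr, was well above background on no array, and Cyp1a2 read between -3.14 and -3.02 on the 3 arrays where it passed.

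Of the enzymes of vitamin D and retinoic acid, Cyp26b1, which degrades retinoic acid, was higher after TmT in both lines. It read 0.68 after TmT and -0.74 after oil in TRAMP mice, and 0.59 after TmT and -0.29 after oil in C57BL/6 mice. Both TmT arrays stood above both oil arrays, by 1.42 ± 0.21 in TRAMP mice and 0.88 ± 0.20 in C57BL/6 mice. In limma the TmT difference was 1.15 with a standard error of 0.342 and an adjusted p of 0.778, so it did not pass the test. Cyp2r1, the hydroxylase of vitamin D in liver, read -2.87 after TmT and -3.88 after oil in TRAMP mice, a difference of 1.01 ± 0.32 that became 0.55 with normexp. This difference was also under 2-fold with quantile normalization, at 0.89, and with scaling to the median, at 0.94. Before multiplicative detrending it was 0.75, and with that detrending on all 4 arrays 0.94. In C57BL/6 mice Cyp2r1 read -3.40 after oil and was not well above background after TmT, which makes it at least 2.25-fold lower after TmT there. Cyp24a1, which inactivates vitamin D, was well above background on no array.

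By the brightest probe of each gene, cholesterol and bile acid hydroxylases stayed under 2-fold in all comparisons where both arrays measured them. Cyp7b1, the oxysterol hydroxylase that also acts on androgen metabolites in the prostate, read -0.27 and -0.70 in TRAMP mice after TmT and oil, against 0.24 and -0.05 in C57BL/6 mice after TmT and oil. The TRAMP arrays were lower, with differences of -0.51 ± 0.21 after TmT and -0.65 ± 0.21 after oil. Cyp27a1 and Cyp46a1, sterol hydroxylases of mitochondria and brain, and Cyp39a1, an oxysterol hydroxylase, differed by at most 0.51 in size in any comparison of their brightest probes. A second Cyp39a1 probe, well above background on all arrays, read -2.50 after TmT and -1.20 after oil in TRAMP mice, and -2.27 after TmT and -1.30 after oil in C57BL/6 mice. It was lower after TmT in both lines, with differences of -1.30 in TRAMP mice and -0.97 in C57BL/6 mice, where the brightest probe gave -0.17 and -0.30. Cyp8b1 was well above background on no array and Cyp7a1, the rate-limiting enzyme of bile acid synthesis in liver, on the C57BL/6 array after oil only.

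Genes of the CYP2D cluster on chromosome 15, most of which serve drug and steroid oxidation in mouse liver, stayed mostly under 2-fold. Of the 7, 4 were measured on all arrays. Cyp2d22 had 3 probes: the one used gave -0.35 for TmT against oil in TRAMP mice, the second 1.88 and the third at least 2.72-fold higher, so they disagree. Cyp2d10 read -1.80 in TRAMP and -0.97 in C57BL/6 mice after oil, a difference of -0.84 ± 0.21, while the lines differed by 0.18 ± 0.21 after TmT. Cyp2d9 read -1.20 and -1.05 in TRAMP mice after TmT and oil, against -1.09 and -0.73 in C57BL/6 mice after TmT and oil. Cyp2d12 read -4.60 in TRAMP and -3.43 in C57BL/6 mice after oil, a difference of -1.17 ± 0.35. It was -0.06 with normexp and -0.96 before multiplicative detrending. Cyp2u1, an omega-hydroxylase of long-chain fatty acids, was as dim, at -4.51 in TRAMP and -3.50 in C57BL/6 mice after oil, and its difference of -1.01 ± 0.37 became 0.05 with normexp. It was also under 2-fold with quantile normalization, at -0.93, with scaling to the median, at -0.98, and before multiplicative detrending, at -0.87. Probes of close CYP2D paralogues may share transcripts.

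The CYP3A genes, the main drug-metabolising P450 family of liver and gut, were dim. Besides Cyp3a44, Cyp3a41a was measured on all arrays, at -3.15 and -3.75 in TRAMP mice after TmT and oil, against -2.98 and -3.21 in C57BL/6 mice after TmT and oil, with no 2-fold difference. Cyp3a11 and Cyp3a25 passed on 3 arrays each, and not on the TRAMP array after TmT.

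Some CYP2 genes stood out on a single array. Cyp2c70, which makes muricholic acids in mouse liver, read -1.89 and -2.24 in TRAMP mice after TmT and oil and -1.86 in C57BL/6 mice after TmT, against -3.84 in C57BL/6 mice after oil. Among genes measured on both arrays it was the P450 gene at least 2-fold higher after TmT in C57BL/6 mice, by 1.98 ± 0.26, and it was 1.60 ± 0.26 higher in TRAMP mice after oil, and normexp gave 0.70 and 0.63. Cyp2c55, a hydroxylase of arachidonic acid in mouse colon, read -1.95 in TRAMP mice after TmT and -2.91 in C57BL/6 mice after oil and was not well above background on the other 2 arrays. It was at least 3.98-fold higher after TmT in TRAMP mice and at least 3.15-fold lower after TmT in C57BL/6 mice. Cyp2g1, known from olfactory mucosa, passed on the C57BL/6 array after TmT only, at -2.76, at least 4.22-fold higher than after oil, and its second probe passed on no array. Cyp2j11 was at least 2.25-fold higher in TRAMP than in C57BL/6 mice after TmT, and read -3.40 in TRAMP mice there.

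Promoters are printed for Cyp2b19, higher in TRAMP mice under both gavages, for Cyp2j13, whose line difference turned with the gavage, and for Cyp2e1, which had the largest difference. They are RefSeq windows of 250 bases before to 50 bases after the transcription start. Each is written 5′ to 3′ on the strand of the gene. Promoters were in the table for 58 member genes. Capitals mark matches on either strand to AGAACA, a repeat unit bound by the androgen receptor, AGGTCA, a repeat unit bound by many nuclear receptors, or GCGTG, the core bound by Ahr, and no matches overlap. Cyp2b19 is at chr7:26756892-26757191 on the plus strand, Cyp2j13 at chr4:96077491-96077790 on the minus strand and Cyp2e1 at chr7:140763569-140763868 on the plus strand of GRCm38.p6.
Cyp2b19: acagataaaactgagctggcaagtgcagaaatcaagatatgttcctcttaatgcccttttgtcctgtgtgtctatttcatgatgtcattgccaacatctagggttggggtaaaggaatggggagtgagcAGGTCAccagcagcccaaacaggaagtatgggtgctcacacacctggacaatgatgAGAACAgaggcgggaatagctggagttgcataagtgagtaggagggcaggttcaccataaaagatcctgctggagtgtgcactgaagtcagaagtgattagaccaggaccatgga
Cyp2j13: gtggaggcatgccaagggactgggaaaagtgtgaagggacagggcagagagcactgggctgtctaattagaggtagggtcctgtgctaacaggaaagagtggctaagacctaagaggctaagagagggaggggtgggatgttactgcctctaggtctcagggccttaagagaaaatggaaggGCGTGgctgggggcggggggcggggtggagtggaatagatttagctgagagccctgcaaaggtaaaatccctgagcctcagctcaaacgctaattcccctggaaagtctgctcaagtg
Cyp2e1: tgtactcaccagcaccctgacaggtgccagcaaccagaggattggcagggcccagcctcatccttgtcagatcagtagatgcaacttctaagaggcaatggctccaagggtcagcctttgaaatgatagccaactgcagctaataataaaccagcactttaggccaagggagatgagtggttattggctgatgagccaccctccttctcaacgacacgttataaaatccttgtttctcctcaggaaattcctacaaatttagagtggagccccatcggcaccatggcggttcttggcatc

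The Cyp2b19 window holds 1 AGAACA and 1 AGGTCA, the Cyp2j13 window holds 1 GCGTG and the Cyp2e1 window holds none of the motifs. AGAACA occurs in 19% of all 27025 promoters of the table and in 22.4% of those of the 58 P450 genes. AGGTCA occurs in 16% of all promoters and in 27.6% of the P450 ones, and GCGTG in 32.5% and 22.4%. Short motifs occur often by their length alone, and a match describes letters, not binding.

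Partners of the P450 enzymes were read on all arrays. Por, the reductase that supplies electrons to microsomal P450 enzymes, read 3.14 and 2.42 in TRAMP mice after TmT and oil, against 1.58 and 1.34 in C57BL/6 mice after TmT and oil. Both TRAMP arrays stood above both C57BL/6 arrays, by 1.56 after TmT and 1.08 after oil. Of the 14 partner and haem genes on the array, Por was the only one at least 2-fold higher in TRAMP mice after oil and after TmT. Fech, which inserts the iron of haem, differed by -1.07 after TmT, at 0.83 in TRAMP and 1.91 in C57BL/6 mice. Urod, an enzyme of haem synthesis, differed by -1.58 after oil, at 0.97 in TRAMP and 2.55 in C57BL/6 mice. TmT against oil was 2-fold for Urod alone in TRAMP mice, at 1.23, and for 0 of the 14 genes in C57BL/6 mice.

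Among 18 receptors and regulators of P450 genes, Nr1i2, the pregnane receptor, was well above background on no array. Ahrr, the repressor of Ahr, read -1.89 in TRAMP after TmT, -2.17 in C57BL/6 after TmT and -2.03 in C57BL/6 after oil and was not well above background in TRAMP after oil. Ppara, the fatty acid receptor that drives CYP4A genes, read -0.96 in TRAMP mice and -2.24 in C57BL/6 mice after oil, a difference of 1.28, and TmT against oil gave -1.03 in TRAMP mice. Rarb, a retinoic acid receptor, read -3.62 in TRAMP mice and -1.81 in C57BL/6 mice after oil, and in TRAMP mice it was 1.63 higher after TmT. No receptor measured on both arrays differed 2-fold after TmT between the lines or after TmT in C57BL/6 mice.

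Of 9 other genes of vitamin E handling, Ttpa, the tocopherol transfer protein of liver, was well above background on no array. Sec14l2, a tocopherol-binding protein, read 1.74 and 1.66 in TRAMP mice after TmT and oil, against 2.06 and 1.69 in C57BL/6 mice after TmT and oil. In TRAMP mice 3 of the 7 measured were at least 2-fold lower after TmT than after oil, namely Abca1, Cd36 and Lpl, with differences of -1.37, -2.10 and -2.10. Cd36 and Lpl are also expressed by adipocytes, whose markers were lower on the same array. The part of fat tissue in the levels of Abca1, Cd36 and Lpl was not tested. In C57BL/6 mice 0 of 8 differed 2-fold.

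Of the P450 genes outside the naming rule, Cyp51, the sterol demethylase of cholesterol synthesis, read -0.56 after TmT and 0.44 after oil in TRAMP mice, and -0.77 after TmT and 0.08 after oil in C57BL/6 mice. It was lower after TmT in both lines, and 2-fold was not reached in either. Tbxas1, the thromboxane synthase, differed by -1.26 after oil, at -3.07 in TRAMP and -1.81 in C57BL/6 mice. Ptgis, the prostacyclin synthase, stayed under 2-fold, and Cyp2ab1 was well above background on no array.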

How the data were processed

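Prostate RNA was labelled with Cy3 and hybridised to Agilent mouse arrays, 1 array per group and 4 in all. The deposited scanner files hold a processed signal per spot, which is a linear intensity after background subtraction and detrending, per the file headers (Agilent Feature Extraction 10.2.1.3, positions on mm9). The detrending surface, a ratio per spot in the deposited files, was applied to all arrays but that of TRAMP after TmT. The deposited value table held the same intensities for all 45018 features. All arrays were on 1 slide with 1 scan time. No spot was saturated.

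Control spots and outlier marks (131 to 348 spots per array) were left out. Each intensity was scaled to the array's 75th percentile and taken as log2, and a gene was its brightest probe. RefSeq accessions matched 99 of the 113 probes, and Cyp2c44 is now Cyp2c23. Differences of at least 2-fold were counted between pairs of arrays without a test. Line and treatment were fitted with limma 3.58.1 in R 4.3.3 (lmFit, eBayes, Benjamini-Hochberg over the 19921 genes that passed the background mark on 2 or more arrays), with p-values that measure the interaction as error. The fit was checked on simulated data, where it recovered 74% of genes changed by a log2 value of 3, 94% at 4 and none at 1 or 2, with 13 unchanged genes among the 97 called. The number of arrays limits the precision. Named genes were every CYP4F gene, those 2-fold different or with a 2-fold bound, and up to 4 bright members of each list. Members and lists were chosen with earlier results of these data known. Alternatives covered scaling, background correction, detrending, the background filter, the probe rule and the fold.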

Additional observations from a re-analysis of the deposited data

Results flagged for a closer look

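For 3 genes the 2 lines differed by at least 2-fold in opposite directions under the 2 gavages, with 1 array per group. Cyp2j13 differed between TRAMP and C57BL/6 mice by 1.57 after TmT and by -2.23 after oil. Cyp4a12a differed by 1.01 after TmT and -1.70 after oil, and Cyp4a12b by 1.28 after TmT and -1.92 after oil. The difference between the gavages was not tested. The probes of Cyp4a12a and Cyp4a12b may read each other's transcript, and a second Cyp2j13 probe differed by -0.31 after TmT and -0.09 after oil, while the third was at least 2.46-fold higher after TmT and at least 4.01-fold lower after oil.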

How the results depend on the processing

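No paired analysis was possible because each group has 1 array, and no array could be left out because no residual degree of freedom would remain. The planned normexp correction collapsed on the arrays of TRAMP after TmT and C57BL/6 after TmT, where 13 and 17 spots had local backgrounds far above their signal. It is not used. In its place, and chosen after seeing the data, backgrounds marked as outliers were set to the array median, with the same added 50 units. Multiplicative detrending on all 4 arrays was also added after seeing the data and changed no count beyond 1.5 times. It could move only comparisons that use the TRAMP array after TmT.

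Counts of P450 genes depended most on the fold and on the treatment of dim signals. Without the background filter all 80 genes were counted, against 38 to 50 in the main setting, so those counts can rise from more genes alone. Shares of all genes under these settings, the limma fits included, are not given here, so the counts describe the settings only. Of 10 higher in TRAMP mice after oil, normexp gave 3. Of 8 lower after oil, the 3-fold threshold gave 4, the 1.5-fold threshold 16, no background filter 14 and normexp 4. Of 5 higher in TRAMP mice after TmT, 3-fold gave 1, 1.5-fold 10, no filter 13, the median of each array 3 and normexp 0. Of 1 lower after TmT, 3-fold gave 0, 1.5-fold 5, no filter 7 and normexp 0. For TmT in C57BL/6 mice, the 1 higher became 7 at 1.5-fold, 4 without the filter, 2 with the mean over all probes and 0 with normexp. The 0 lower there became 4, 6 and 1 under the first 3 of these and 1 before multiplicative detrending. For TmT in TRAMP mice, the 6 higher became 3 at 3-fold, 11 at 1.5-fold and 18 without the filter, and the 5 lower became 1 at 3-fold, 8 at 1.5-fold and 3 with normexp. The median difference after oil was -0.32 and 0.05 with normexp. For the line, limma called 0 P450 genes, 1 with an intensity-dependent prior and 4 with normexp. The cause was not tested.

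Directions reversed for Cyp2u1 after oil (0.05 with normexp), Cyp4a10 after oil (1.01 with the mean over all probes), Cyp2b19 for TmT in TRAMP mice (-1.58 with the mean over all probes), and Cyp2b23 and Cyp4f16 for TmT in TRAMP mice (0.05 and 0.10 with normexp). Of 1248 values of named genes under the alternatives, 1184 stayed on their side of 2-fold. Another 42 no longer reached it, 17 newly reached it and 5 were those reversed. Among the 1184 were values that could not move, so this count overstates how steady the values were. They include 156 from the deposited values, which are the same intensities, and 156 without the background filter, which alters no difference. Averaging all probes could not move single-probe genes, and detrending on all arrays could not move comparisons without the TRAMP array after TmT. Differences under 2-fold could turn without being counted, as those for TmT in TRAMP mice did before multiplicative detrending, at -0.77 and 0.64 for Cyp4f13 and at -0.50 and 0.46 for Cyp20a1.

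Dim probes limit the list: the lowest reading well above background was -3.53 on the TRAMP array after TmT and -4.86 on the TRAMP array after oil, with 42 and 52 P450 genes passing.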
